A study of Homo sapiens with 6 samples.

Results

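HSD11B1 and 8 genes that surround it in glucocorticoid biology were followed in A172 cells, an established human glioblastoma cell line, with and without ectopic RBFOX1, an RNA-binding protein whose motif is TGCATG in DNA letters. The 9 genes, of 58051 counted, were taken by symbol. HSD11B1 was chosen by its counts in this comparison, being nearly lost in RBFOX1 cells, and the others were chosen by their role as partner enzymes (HSD11B2, H6PD), receptors (NR3C1, NR3C2) and hormone-responsive targets (FKBP5, TSC22D3, PER1, KLF9). Of the 9 genes, 8 passed the minimum of 10 counts summed over the libraries, and HSD11B2 did not. Stable A172 lines carried a lentiviral construct for either RBFOX1 (pLX317-RBFOX1) or GFP (pLX317-GFP), the GFP lines being the control, with 3 biological replicates of each. All lines grew in DMEM with fetal bovine serum and penicillin/streptomycin after infection in the presence of polybrene. No hormone treatment was given in the labels or the study's methods, and the steroids that serum carries were not measured here. The groups are limited as a model by resting on a single cell line, and neither the promoter that drives the construct nor whether each line was a pool or a clone was given in the sources used here. In such bulk RNA, fewer cells expressing a gene and less RNA per cell cannot be told apart.

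Cortisol is made locally from inert cortisone by HSD11B1, a reductase of the endoplasmic reticulum that depends on NADPH produced there by H6PD, whereas HSD11B2 runs the reaction the other way and inactivates cortisol. Cortisol binds the glucocorticoid receptor NR3C1 and the mineralocorticoid receptor NR3C2, which are held ready by chaperones, move to the nucleus and act on DNA elements made of inverted hexamers. FKBP5, TSC22D3, PER1 and KLF9 are among the genes the glucocorticoid receptor is best known to induce, and FKBP5 in turn lowers the receptor's affinity for hormone.

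The libraries held 7433414 to 23249221 counts on genes. RBFOX1 replicate 1 was the shallowest, and there 3 counts, the limit that a count of 0 allows, were worth 5.44 normalized counts. GFP replicate 1, the deepest, stood apart from the other GFP libraries, its counts giving chi-square over degrees of freedom of 8.08 and 8.23 against them, where those 2 gave 1.60 between each other, a measure that also grows with depth. Without it, 3 genes of the set other than HSD11B1 were higher and 2 lower, and the bound for HSD11B1 was 57.1-fold. RBFOX1 itself had 4, 0 and 1 counts in the GFP libraries and 10276, 16467 and 21451 in the RBFOX1 libraries. The cells were checked against their label by marker lists: VIM and CD44 were abundant in every library, while the astrocytic markers GFAP and S100B did not exceed 4 and 2 counts. Summed over the 10 glioma and neural markers, the level was 80090 to 80969 normalized counts in GFP and 54011 to 54631 in RBFOX1 libraries, a sum carried by VIM and CD44. The list itself was divided, with 4 markers lower (VIM, CD44, SOX9, OLIG2) and 3 higher (NES 1.52-fold, SOX2 5.79-fold and CHI3L1 96.8-fold). The 6 markers of other cell types summed to 44.2 to 55.2 in GFP and 167 to 180 in RBFOX1 libraries, with PTPRC, PECAM1 and SYP past the threshold and CD68, EPCAM and RBFOX3 at 20 counts or fewer in each library, and their part in the results was not tested.

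Promoter sequences were examined first, because genes that answer the receptor may carry its element near their start. In the RefSeq table of GRCh38.p14, 21 promoter windows, from 250 bases before to 50 after a start site, belonged to 8 of the genes, and HSD11B2 was not matched. The whole glucocorticoid response element, searched as GNACA and TGTNC with 3 free bases between them, which reads alike on both strands, occurred in 0 of the 21 windows and in 0.39% of all 35116. A single arm of it, AGAACA on either strand and so also TGTTCT, occurred in 2 of the 21 and in 14.8% of all windows. The HSD11B1 sequence upstream of its outermost annotated start, chr1:209685929-209686178 on the plus strand of GRCh38.p14, held neither. Starts further inside the gene were not examined, and whether this is the promoter in use in A172 cells was not tested. It is shown because the gene was lost:
HSD11B1: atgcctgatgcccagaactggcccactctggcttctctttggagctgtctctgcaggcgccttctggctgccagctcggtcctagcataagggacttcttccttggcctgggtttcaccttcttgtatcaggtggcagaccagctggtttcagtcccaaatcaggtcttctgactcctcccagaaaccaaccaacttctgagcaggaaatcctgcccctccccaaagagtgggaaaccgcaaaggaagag

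An arm of the element lay in a window of FKBP5, where it began at the start site itself (position 1, chr6:35728563-35728592, minus strand). The other FKBP5 window, chr6:35688866-35689165, held none. In the window of H6PD an arm began at position -204 (chr1:9239634-9239663, plus strand). Among the glucocorticoid-induced genes listed further on, FAM107A, with at most 1 count in any library, and TXNIP matched the pattern of the whole element. The TXNIP match, at position -175 (chr1:145996734-145996763, minus strand), held neither AGAACA nor TGTTCT. The matches in FKBP5, H6PD and TXNIP are shown with the matched letters in capitals, from 5′ to 3′:
FKBP5: cactaccccAGAACAaactcctacctctgt
H6PD: actcccacaTGTTCTttttaaaaaattcca
TXNIP: cagccaggaGCACACCGTGTCCacgcgcca

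The motif of RBFOX1 was searched in the 3′ UTR of the canonical GENCODE transcript of each gene. It was found in 4 of the 9 genes and in 36.5% of the 14052 genes tested that had such a UTR. HSD11B1, with a 3′ UTR of 408 nucleotides, and FKBP5, with 2245, held no TGCATG there. The sites lay on GRCh38 in H6PD (chr1:9270429-9270434, plus strand), NR3C1 (chr5:143281445-143281450, minus), NR3C2 (chr4:148080431-148080436, minus) and TSC22D3 (chrX:107714309-107714314 and chrX:107713980-107713985, minus). The sites are shown with the motif in capitals, because they are the letters through which RBFOX1 is known to bind RNA, and no binding was measured here:
H6PD: ttacggggcgccTGCATGcaggaggaagga
NR3C1: atttttgatttaTGCATGgaaacctgaaaa
NR3C2: agtgcaatgtccTGCATGcataatgaaccg
TSC22D3, first site: tggaggctgagtTGCATGgggcctagtaac
TSC22D3, second site: aatatggtataaTGCATGgctttgtgcaca

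HSD11B1 (chromosome 1 of GRCh38, 209686178 to 209734949, plus strand) was well expressed in GFP cells and almost undetectable in RBFOX1 cells. It had 380, 195 and 200 counts in GFP replicates 1, 2 and 3, and 0, 3 and 0 counts in the RBFOX1 replicates. After normalization for library size, the GFP libraries lay at 231, 228 and 211 (223 ± 10.8, SD, n = 3) and the RBFOX1 libraries at 0, 3.33 and 0. The groups were far apart, and the fold can only be bounded: against 3 counts in each RBFOX1 library, HSD11B1 was at least 58.1-fold lower in RBFOX1 cells. The gene was selected for this loss, so its values are a description and no test is attached to them. With each library left out in turn the bound lay between 50.9 and 73.5, since it follows the depth of the RBFOX1 libraries that remain.

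**Figure D1:**
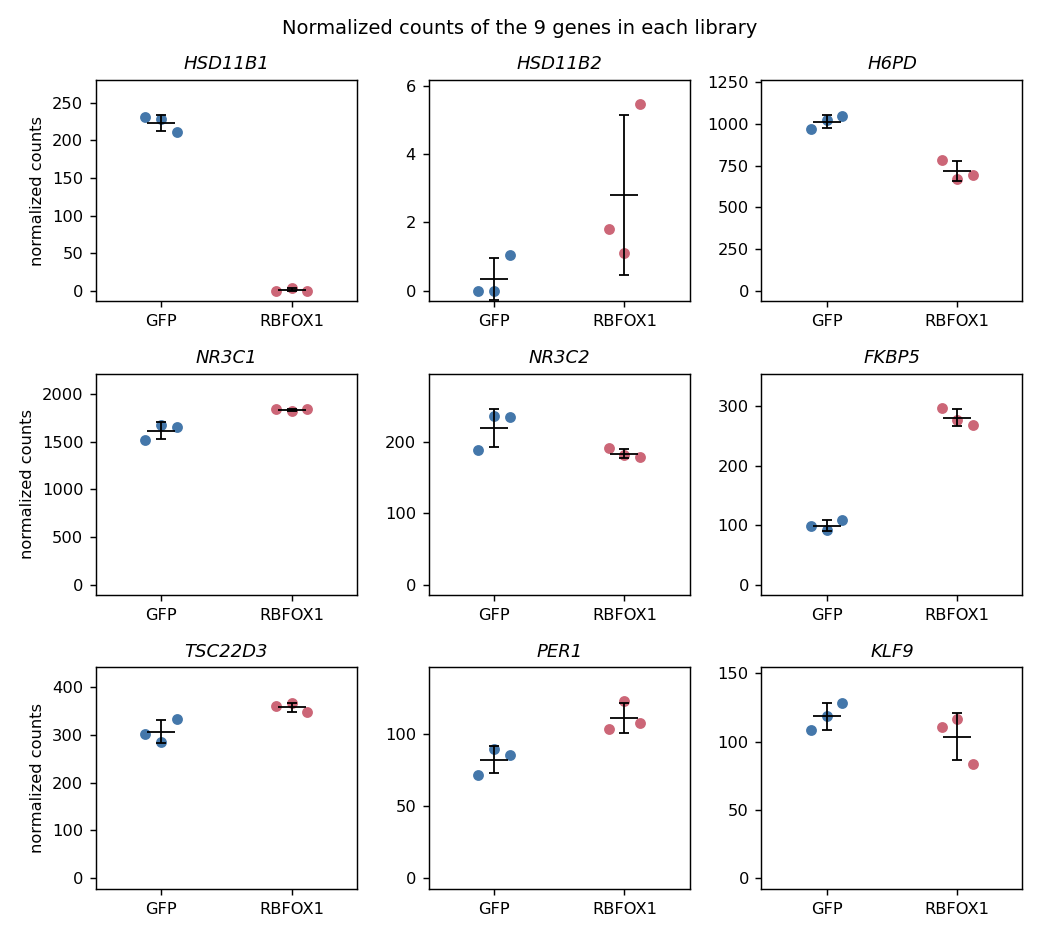
Normalized counts of the 9 genes, GFP (blue) against RBFOX1 cells (red), with 1 point per library, a horizontal line at the mean and bars of 1 SD (n = 3); each panel has its own axis from 0. HSD11B1 lies between 0 and 3.33 in the RBFOX1 libraries, FKBP5 and PER1 stand higher in all of them, and H6PD lower. HSD11B2 has too few counts to give a fold, and the other panels show small shifts or overlapping groups.

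HSD11B2 (chromosome 16, 67430652 to 67437553), the opposing oxidase, was hardly expressed in either condition. It had 0, 0 and 1 counts in GFP and 1, 1 and 6 in RBFOX1 libraries, too few for the test and too few to give a fold. H6PD (chromosome 1, 9234774 to 9271337), which supplies HSD11B1 with NADPH, had 1596, 876 and 995 counts in GFP and 432, 605 and 760 in RBFOX1 libraries. Every RBFOX1 library lay below every GFP library after normalization, at 784, 672 and 694 against 969, 1023 and 1048. H6PD fell 1.42-fold (log2 fold change -0.51, standard error 0.066, adjusted p = 1.99e-06, edgeR's quasi-likelihood test).

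NR3C1 (chromosome 5, 143277931 to 143435512), the glucocorticoid receptor, kept a high level in both conditions. Its normalized counts were 1513, 1678 and 1649 in GFP and 1841, 1824 and 1841 in RBFOX1 libraries. All RBFOX1 libraries lay above all GFP libraries, by a small margin. The rise was 1.14-fold (log2 fold change 0.19, standard error 0.053, adjusted p = 0.00586 in edgeR's test). NR3C2 (chromosome 4, 148078762 to 148444698), the mineralocorticoid receptor, stood at 189, 236 and 234 normalized counts in GFP and at 190, 181 and 178 in RBFOX1 libraries. These groups overlapped through GFP replicate 1, and NR3C2 did not pass the threshold (log2 fold change -0.25, standard error 0.11, adjusted p = 0.062, edgeR). Without GFP replicate 1 NR3C2 passed it, with an adjusted p of 0.00489 (edgeR) and a log2 fold change of -0.36, as it did with upper quartile scaling (adjusted p = 0.0393).

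FKBP5 (chromosome 6, 35573585 to 35728583), the co-chaperone that restrains the receptor, showed the clearest difference of the targets. Its counts were 162, 78 and 103 in GFP and 164, 250 and 294 in RBFOX1 libraries. After normalization the GFP libraries lay at 98.3, 91.1 and 109 and the RBFOX1 libraries at 297, 278 and 268. The groups did not overlap, and the lowest RBFOX1 library was well above the highest GFP library. FKBP5 rose 2.81-fold (log2 fold change 1.49, standard error 0.10, adjusted p = 1.99e-10, edgeR), and its log2 fold change stayed between 1.44 and 1.55 over 12 alternative settings.

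PER1 (chromosome 17, 8140472 to 8156506), a circadian repressor that glucocorticoids induce, had 71.6, 89.9 and 85.3 normalized counts in GFP and 103, 123 and 108 in RBFOX1 libraries. The groups did not overlap, and PER1 rose 1.39-fold (log2 fold change 0.47, standard error 0.13, adjusted p = 0.00648, edgeR), although DESeq2 did not call it (adjusted p = 0.0591). TSC22D3 (chromosome X, 107713221 to 107777342), which encodes the anti-inflammatory protein GILZ, had 302, 285 and 332 normalized counts in GFP and 361, 365 and 347 in RBFOX1 libraries. Its RBFOX1 libraries all lay above its GFP libraries, narrowly. TSC22D3 rose 1.17-fold in edgeR's fit (log2 fold change 0.22, standard error 0.081, adjusted p = 0.0294), but in 6 of the 12 alternatives it did not pass the threshold, with adjusted p up to 0.119 (without GFP replicate 2), with 0.0568 without GFP replicate 1 and with 0.108 in DESeq2. KLF9 (chromosome 9, 70384604 to 70414657), a zinc-finger repressor, had 109, 119 and 129 normalized counts in GFP and 111, 117 and 84.0 in RBFOX1 libraries. Its groups overlapped and it did not pass the threshold in edgeR's fit or in any of the 12 alternatives (log2 fold change -0.20, standard error 0.14, adjusted p = 0.244, edgeR).

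Apart from HSD11B1, then, 4 genes of the set were higher (NR3C1, FKBP5, TSC22D3, PER1), 1 was lower (H6PD), 2 were not called (NR3C2, KLF9) and 1 was not tested (HSD11B2). Of all 20536 genes tested, 46.6% were called, 23.7% as higher and 22.9% as lower, and for 53.4% the groups did not overlap. Among the 14094 protein-coding genes tested, 59.1% were called, 30.3% as higher and 28.8% as lower. A call alone therefore did not set these genes apart from the rest of the transcriptome.

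Levels were compared between genes only per exon length, as TPM, within a condition. In GFP cells the order was NR3C1 (38.3 ± 4.03, SD, n = 3), HSD11B1 (31.9 ± 1.16), H6PD (23.6 ± 2.22), TSC22D3 (13.4 ± 1.52), NR3C2 (7.24 ± 1.23), KLF9 (4.97 ± 0.676), PER1 (2.56 ± 0.415), FKBP5 (2.03 ± 0.244) and HSD11B2 (0.0298 ± 0.0516). Only the neighbours PER1 and FKBP5 overlapped between libraries in this order, so HSD11B1 ranked above its NADPH supplier and below the receptor in each GFP library. In RBFOX1 cells NR3C1 again came first (50.4 ± 0.637), followed by H6PD (19.4 ± 1.75) and TSC22D3 (18.2 ± 0.475), NR3C2 (6.98 ± 0.290) and FKBP5 (6.66 ± 0.390), KLF9 (5.02 ± 0.833) and PER1 (4.01 ± 0.345), with HSD11B2 (0.264 ± 0.221) and HSD11B1 (0.183 ± 0.318) last. There, H6PD and TSC22D3, NR3C2 and FKBP5, KLF9 and PER1, and HSD11B2 and HSD11B1 overlapped as neighbours, and the other neighbours did not. By this measure FKBP5 stood next to last among the genes in GFP cells and beside NR3C2 in RBFOX1 cells. The length joins all annotated exons of a gene, 10628 bases for FKBP5 and 5201 for KLF9, and can exceed that of the transcripts made. The order of all the genes depends on these lengths, and other lengths were not tried. TPM values were used for these orders only, because each library's TPM depends on all its other transcripts.

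**Figure D2:**
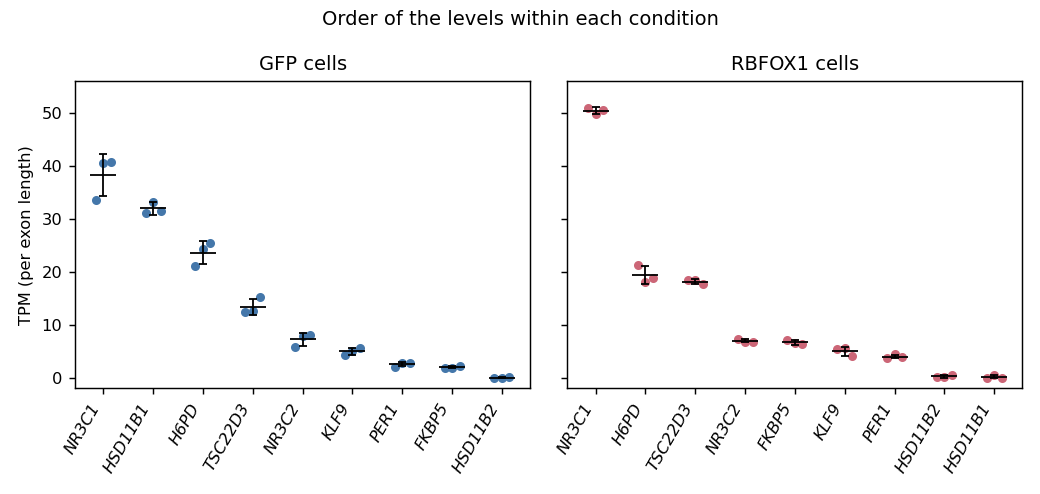
TPM (counts per length of all annotated exons of a gene, scaled within each library) of the 9 genes in GFP cells (left) and RBFOX1 cells (right), in order of their mean, with 1 point per library and bars of 1 SD (n = 3). HSD11B1 is second at 31.9 in GFP cells and last at 0.183 in RBFOX1 cells.

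Further genes of the pathway were taken from lists written by hand from their roles. Among 36 genes known to be induced by glucocorticoids, 31 were tested, and 20 were higher and 5 lower in RBFOX1 cells, with a median log2 fold change of 0.52. Leaving out FKBP5, TSC22D3, PER1 and KLF9, 17 of 27 (63.0%) were higher and 5 (18.5%) lower, with a median of 0.57, beside a median of 0.0051 over all genes tested and 0.017 over protein-coding genes. These shares describe the list beside 30.3% and 28.8% of protein-coding genes, and no test of the list was made.

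The induced genes that were higher covered metabolism and signalling. ANGPTL4, a secreted inhibitor of lipoprotein lipase, had 8, 7 and 5 counts in GFP and 59, 67 and 102 in RBFOX1 libraries, a rise of 15.2-fold (log2 fold change 3.93, standard error 0.25, adjusted p = 8.93e-11, edgeR). PCK1, the cytosolic enzyme that commits carbon to gluconeogenesis, had 0 counts in each GFP library and 25, 36 and 38 in the RBFOX1 libraries, at least 14.1-fold higher. Both were close to silent in GFP cells. DUSP1, a phosphatase that inactivates MAP kinases, rose from 257 ± 21.7 to 671 ± 13.5 normalized counts (SD, n = 3; log2 fold change 1.37, standard error 0.076). GLUL, glutamine synthetase, rose from 1280 ± 21.0 to 2397 ± 84.7, and TXNIP, which binds thioredoxin and restrains glucose uptake, from 4064 ± 230 to 7979 ± 438. In each of these 3 genes every RBFOX1 library lay above every GFP library. IRS2, an adaptor of the insulin receptor, rose by 1.13 on the log2 scale (standard error 0.11), CEBPD, a transcription factor, by 1.49 (0.19) and the metallothionein MT1X, whose reads may be shared with close paralogs, by 1.76 (0.23). PDK4, a brake on pyruvate dehydrogenase, had 1, 3 and 2 counts in GFP and 6, 8 and 8 in RBFOX1 libraries. It was 3.19-fold higher (1.67 on the log2 scale) against 3 counts in each GFP library. That is no lower limit, since its fitted log2 fold change was 1.60 without GFP replicate 1. SCNN1A, a subunit of the epithelial sodium channel, had 4, 0 and 3 against 3, 11 and 8 counts. At such counts the SCNN1A call (adjusted p = 0.0105, edgeR) was lost in DESeq2 (adjusted p = 0.0677) and without RBFOX1 replicate 2 (adjusted p = 0.0791).

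Other induced genes went the opposite way. LPIN1, a phosphatidate phosphatase of lipid synthesis, had the smallest p of the list, with 3054, 3048 and 3047 normalized counts in GFP and 1464, 1487 and 1523 in RBFOX1 libraries. LPIN1 fell 2.04-fold (log2 fold change -1.03, standard error 0.048, adjusted p = 6.15e-13, edgeR). NFKBIA, the inhibitor that holds NF-kappaB in the cytoplasm, fell from 741 ± 25.7 to 305 ± 40.7 normalized counts (log2 fold change -1.26, standard error 0.081). CRISPLD2, TNFAIP3 and ANXA1 also fell, by 0.79, 0.33 and 0.52 on the log2 scale, the calls of CRISPLD2 and TNFAIP3 being lost in DESeq2. The induced genes of the receptor thus did not all move in the same direction.

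**Figure D3:**
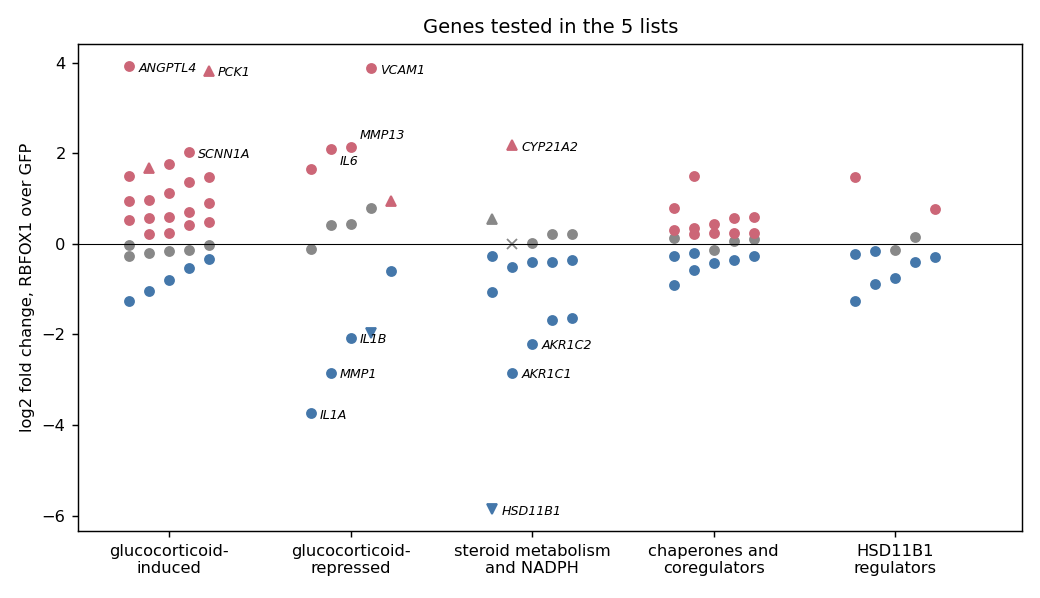
Fitted log2 fold changes (RBFOX1 over GFP) of the tested genes of 5 hand-written lists, with 1 symbol per gene, red for higher and blue for lower at an adjusted p under 0.05, grey for not called, triangles for bounds against 3 counts, and a cross at 0 where no fold can be given; the HSD11B1 triangle is a description, not a call. Most induced genes lie above 0, steroid metabolism lies mostly below 0, and the repressed list splits both ways.

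Among 18 genes known to be repressed by glucocorticoids, 14 were tested, and 5 were higher (35.7%) and 5 lower (35.7%), near the 30.3% and 28.8% of protein-coding genes. Their median log2 fold change was 0.42, but it turned to -0.59 when low genes were left out by filterByExpr and to -0.24 without RBFOX1 replicate 2, so no direction is given for the list. VCAM1, an endothelial adhesion molecule, rose from 17.0, 16.3 and 13.7 to 248, 269 and 196 normalized counts, 14.7-fold (log2 fold change 3.88, standard error 0.17, adjusted p = 3.57e-13, edgeR). The cytokine IL11 rose from 165 ± 11.4 to 525 ± 24.2 normalized counts. The collagenase MMP13 rose from 4, 5 and 9 to 15, 29 and 16 counts. IL6 (4, 1 and 1 against 2, 11 and 7 counts) and NOS2 (1, 0 and 2 against 3, 5 and 6 counts) were called by edgeR and not by DESeq2, which gave adjusted p of 0.0752 and 0.0866. In contrast, the collagenase MMP1 fell from 1597 ± 97.0 to 221 ± 9.11 normalized counts (log2 fold change -2.84, standard error 0.072), and the cytokine IL1A fell from 233, 157 and 117 to 4, 12 and 12 counts (log2 fold change -3.74, standard error 0.23). IL1B, processed and secreted in inflammation, fell from 30, 20 and 30 to 3, 4 and 7 counts. CXCL8, a neutrophil chemokine, was at 25, 13 and 14 counts in GFP and 0, 1 and 1 in RBFOX1 libraries, at least 3.92-fold lower. LIF fell by 0.61 on the log2 scale.

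Chaperones and coregulators of the receptor also split. All 22 were tested, and 11 were higher (50%) and 7 lower (31.8%), beside 30.3% and 28.8% of protein-coding genes. The 11 include FKBP5, which also belongs to the set and to the induced list. The median log2 fold change was 0.18, and 0.10 without GFP replicate 1. FKBP5 had the largest rise. FKBP4, which competes with FKBP5 on the receptor complex and aids its transport, fell from 1267 ± 31.3 to 1045 ± 50.7 normalized counts (log2 fold change -0.27, standard error 0.056). The groups did not overlap for either gene. DNAJB1, a co-chaperone of HSP70, fell from 4583 ± 95.7 to 2430 ± 87.4, and the coactivator NCOA3 fell by 0.57 on the log2 scale (standard error 0.052). SMARCA4, the ATPase of the SWI/SNF remodelling complex, rose from 1554 ± 168 to 2683 ± 85.9 normalized counts (log2 fold change 0.79, standard error 0.064).

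Steroid metabolism and NADPH supply were mostly lower in RBFOX1 cells. Without the 3 genes of the set that belong to it, 15 of 25 were tested, 9 (60%) were lower and 1 (6.67%) higher, with a median of -0.40 on the log2 scale, or of -0.36 with genes near 0 at their bound. Of protein-coding genes, 28.8% were lower. PGLS and PGD, enzymes of the pentose phosphate pathway, fell by 0.40 and 0.26 on the log2 scale. SLC37A4, the carrier that brings glucose 6-phosphate to H6PD, went from 94.7 ± 11.8 to 72.4 ± 1.04 normalized counts, and its call (adjusted p = 0.0238, edgeR) was not made by DESeq2 (adjusted p = 0.164). G6PC3, a phosphatase acting on the same substrate, was not called (779 ± 35.1 normalized counts in GFP, with overlapping groups).

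The steepest falls among these genes were in aldo-keto reductases, which inactivate and interconvert steroid hormones. AKR1C1 had 1150, 603 and 601 counts in GFP and 48, 96 and 96 in RBFOX1 libraries and fell (log2 fold change -2.85, standard error 0.095, adjusted p = 4.32e-15, edgeR). AKR1C2 fell 4.61-fold and AKR1C3 3.22-fold, and every RBFOX1 library of both lay below every GFP library. These genes are neighbours of similar sequence on chromosome 10, so that reads may be lost or assigned to the wrong copy. Their separate values are uncertain to a degree not measured here. CYP3A5, which hydroxylates cortisol, fell from 113, 62 and 77 to 7, 25 and 28 counts (log2 fold change -1.64, standard error 0.21). SRD5A1, a steroid reductase, fell by 0.36. CYP21A2, a hydroxylase of adrenal steroid synthesis with a closely similar pseudogene, was at 2, 0 and 2 counts in GFP and 4, 10 and 22 in RBFOX1 libraries. It was the only gene of the list called higher, 4.53-fold against 3 counts in each GFP library. HSD11B1L, a relative of HSD11B1, was not called (107 ± 16.1 against 126 ± 3.95).

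**Figure D4:**
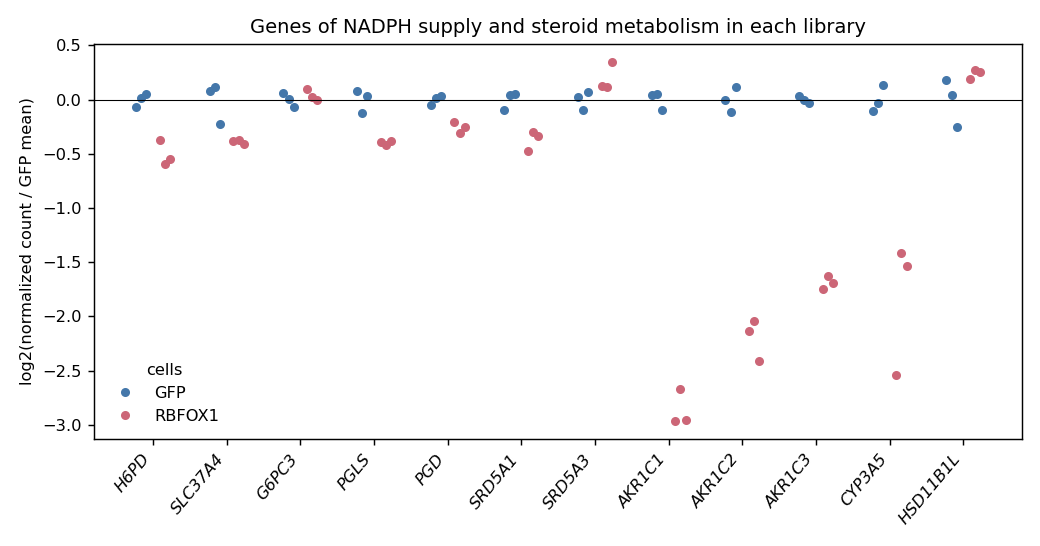
Each library of 12 genes of NADPH supply and steroid metabolism as log2 of its normalized count over the mean of the GFP libraries, GFP in blue and RBFOX1 in red, 3 points each. The AKR1C genes and CYP3A5 lie lowest in all 3 RBFOX1 libraries, while G6PC3, SRD5A3 and HSD11B1L lie at or above 0.

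Factors reported to act on HSD11B1 transcription were taken as a further list. Of 11 such genes, all tested, 7 were lower (63.6%) and 2 higher (18.2%), with a median log2 fold change of -0.21, beside 28.8% and 30.3% of protein-coding genes. The list was not sorted by direction of action, and NFKBIA, for example, inhibits NF-kappaB, so these shares give no direction for HSD11B1. CEBPA, an activator of HSD11B1 transcription in liver and fat cells, fell from 175 ± 12.7 to 96.0 ± 7.30 normalized counts (log2 fold change -0.89, standard error 0.11, adjusted p = 1.88e-06, edgeR). PPARG, the adipogenic nuclear receptor, fell from 388 ± 8.37 to 230 ± 6.69. NFKBIA, described above, fell as well. CEBPD and NR1H3 (1.70-fold) rose, while CEBPB, a relative of CEBPD, was not called (668 ± 40.5 against 612 ± 35.4). RELA, a subunit of NF-kappaB, was at 613 ± 31.6 and 681 ± 14.8 (adjusted p = 0.0566, edgeR), and its partner NFKB1 fell by 0.40 on the log2 scale.

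The genes around HSD11B1 did not share its loss as a block. Of 19 annotated genes within 500 kb, 10 were tested, and 5 were higher, 3 lower and 2 not called. Of all genes tested, 23.7% were higher and 22.9% lower, so calls in both directions were common and these counts only describe the locus. LAMB3, a laminin chain of basement membranes, was the nearest tested gene before HSD11B1, and ended 33.8 kb before its start on the opposite strand. LAMB3 had 1836, 934 and 1026 counts in GFP and 65, 117 and 145 in RBFOX1 libraries, a fall of 8.55-fold (log2 fold change -3.10, standard error 0.077, adjusted p = 4.11e-17, edgeR). Between them lies G0S2, an inhibitor of lipolysis, with 0 counts in all 6 libraries. On the other side the nearest tested gene, C1orf74, was higher (log2 fold change 0.26, standard error 0.090, adjusted p = 0.0228). The antisense transcript HSD11B1-AS1, which overlaps HSD11B1, had 8, 0 and 1 counts in GFP and 0, 0 and 1 in RBFOX1 libraries, too few to give a fold. The library kit was stranded, but the strand setting of the counting was not given in the sources used here.

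**Figure D5:**
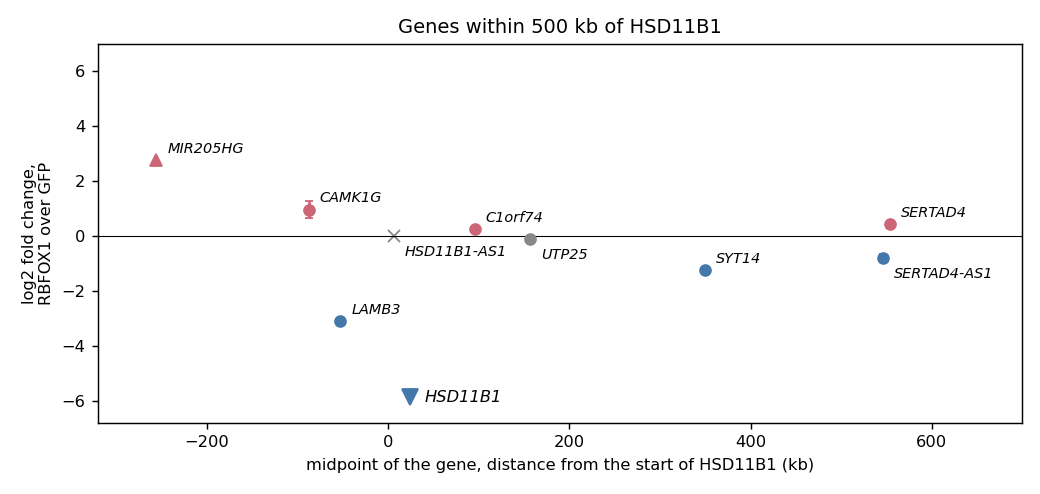
Fitted log2 fold change (RBFOX1 over GFP, bars of 1 standard error) of 9 of the 10 tested genes within 500 kb of HSD11B1 against the distance of their midpoint from the start of HSD11B1 in kb, with red for higher, blue for lower, grey for not called, triangles for bounds against 3 counts and a cross where no fold can be given. LAMB3 and HSD11B1 lie low next to each other, with C1orf74 near 0 on the other side.

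Patterns like that of HSD11B1 were sought over the 6 libraries, as a description. Among 10942 protein-coding genes with at least 50 normalized counts in GFP cells, the 5 with the highest Pearson's r of log2(CPM + 0.5) with HSD11B1 were AKR1C1, ACVRL1, FZD6, TMEM17 and PSMD11, of which 3 remained with a pseudocount of 1. The 6 points fall into the groups of GFP and RBFOX1 libraries and share their depth, so any gene with close replicates and a lower level in RBFOX1 cells comes near to r = 1. ACVRL1, a receptor of the BMP family, fell from 183 ± 3.12 to 61.4 ± 5.48 normalized counts. FZD6, a Wnt receptor, fell by 0.66 on the log2 scale (standard error 0.053). TMEM17, a protein of the ciliary transition zone, fell 2.29-fold, and PSMD11, a proteasome subunit, 2.01-fold. Only TCN1, which encodes a vitamin B12-binding protein, shared the loss itself: with at least 50 normalized counts in GFP cells it was the 1 other protein-coding gene at 3 counts or fewer in every RBFOX1 library. TCN1 had 295, 138 and 149 counts in GFP and 1, 2 and 3 in RBFOX1 libraries, 43.2-fold lower against 3 counts in each RBFOX1 library.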

How the data were processed

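RNA of A172 lines carrying RBFOX1 or GFP, 3 of each, was depleted of rRNA and sequenced with a stranded kit as read pairs. The authors used HISAT2 (build GRCh38) for alignment and HTSeq-count (intersection-strict, Ensembl v87) for counting, and the counts per gene of each library were deposited unnormalized. Their table of a DESeq2 comparison (mean, log2 fold change, standard error, statistic, p-values) was not used. The share of read pairs on genes was 52.0 to 61.9%, and the lines for other reads stayed out.

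Counts were normalized with TMM and tested with edgeR 4.0.16 (R 4.3.3), quasi-likelihood, two-sided, condition as the only term, adjusted by Benjamini-Hochberg over the 20536 genes whose counts summed to 10 or more, with a threshold of 0.05. Normalized counts were scaled to the mean library. Where every library of a group had 3 counts or fewer, a bound against 3 counts per library replaced the fold. It allows for counting error where no reads were seen, but not in full where some were. It takes no account of the error in the other group or of differences between replicates. p-values weigh the difference between the groups against the spread between these libraries. In simulated data the test recovered most changed genes, but its false calls exceeded the nominal rate and, in the first simulated set, a limit set beforehand; the number of sets was then raised to 4 and the limit applied to the pooled share. Alternatives were DESeq2 1.42.0, other scalings and filters, a replicate block and the omission of each replicate.

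Symbols, coordinates and exon lengths came from GENCODE 44, which matched 98.1% of identifiers. The genes and lists were chosen with earlier results of these data known, so their calls are no independent evidence. Named were all 9 genes, the 4 genes with the smallest p of each list and those past the threshold with a log2 change of 1 or more in size, the genes most like HSD11B1, its nearest tested neighbours and RBFOX1. Other genes, among them FKBP4, LIF, CRISPLD2, G0S2 and the smaller steroid enzymes, were named after their values were seen, and the TGCATG search was also added then. Proteins were not analysed here, and some genes are not reported here.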

Additional observations from a re-analysis of the deposited data

How the results depend on the processing

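FKBP5, H6PD and NR3C1 kept their direction and their side of the threshold in all 12 alternatives, PER1 in 11, TSC22D3 in 6 and KLF9 in 12, while NR3C2 was called in 2. Over all genes, 4869 were higher and 4711 lower; with upper quartile scaling these were 4634 and 5001, and with DESeq2 3960 and 3709. Among the genes of the set other than HSD11B1, 2 were lower with upper quartile scaling and 2 were higher with DESeq2; with libraries left out in turn 3 to 4 were higher and 1 to 2 lower. With DESeq2, 16 glucocorticoid-induced genes were higher and 3 lower, and 3 repressed genes were higher. The filter filterByExpr also left 3 repressed genes higher, having fewer low genes to test. The median of the repressed list reversed to -0.59 with filterByExpr and to -0.24 without RBFOX1 replicate 2, the lowest of -0.24 to 0.95 with libraries left out in turn. In steroid metabolism the genes called higher were 2 with no filter on low counts and 0 with filterByExpr. Leaving out libraries in turn gave 17 to 20 induced genes higher and 3 to 5 lower, 1 to 2 steroid genes higher, and a bound for HSD11B1 of 50.9 to 73.5. The causes were not tested. With the replicate number as a block, 4588 genes were higher and 4458 lower, and TSC22D3 moved to an adjusted p of 0.0513 (edgeR); same-numbered libraries did not deviate together (r = -0.197, 0.0328 and -0.0813 over 11336 genes), so the block pairs no samples. Depth limits genes near 3 counts: no fold is given for HSD11B2, and the calls of IL6, NOS2 and SCNN1A rest on a few reads.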
